A study of Bubalus bubalis with 3 samples.

Results

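Bovine miRNA names from miR-2284 to miR-2489 were examined in fat of the Chinese swamp buffalo (Bubalus bubalis), a water buffalo kept for draught and meat. They were chosen by name alone, as every listed name that starts with bta-miR- followed by a number in that range, whatever its letter or arm ending. The rule found 48 of the 622 listed names, carrying 27 different numbers. Of these, 20 were miR-2284 or miR-2285 names and 28 carried the other numbers. The series consisted of 1 group of 3 small RNA libraries from adipose of buffalo aged 6 months, called libraries 1, 2 and 3 after their titles. No treatment, genotype, sex or adipose depot is given in the labels, and they do not say whether each library came from a separate animal. The SDs given here are therefore a spread over 3 samples that may in part be technical.

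A miRNA is a short RNA that guides an Argonaute protein to messenger RNAs, mainly through pairing of its seed, the bases near its 5′ end, with sites that are often in the 3′ untranslated region. miRNAs are numbered in the order in which they are registered, so a run of numbers reflects a shared time of discovery and not a shared function. The names studied here come from the period when cattle tissues were first sequenced in depth, and many have been described only in cattle and close relatives. miR-2284 and miR-2285 form a large ruminant family of many copies whose lettered members have closely related mature sequences. The prefix bta stands for Bos taurus, so that reads of a buffalo were assigned to cattle names. The sources used here do not give how reads that match several lettered names were divided. Mature sequences were not used here.

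The deposited values are TPM, and every column adds up to the same total over the listed names. Low values lay on whole multiples of 1 step, the worth of 1 read, which gave about 6860000, 6770000 and 5480000 reads in libraries 1, 2 and 3. A floor of 3 reads corresponded to 0.437, 0.443 and 0.547 TPM. Library 2 was the lowest of the 3 for 87.3% of the 308 names that averaged at least 1 TPM, and miR-10b alone held 48.8% of its TPM, against 26.5% and 40.4% in libraries 1 and 3. Size factors (median of ratios) were 1.36, 0.602 and 1.21. Marker miRNAs of other tissues were low: 7 striated muscle miRNAs summed to at most 36.2 TPM, 6 epithelial miRNAs to at most 16.1 TPM and the liver miRNA miR-122 to at most 0.6 TPM. The 4 adipose-abundant miRNAs (miR-143, miR-26a, miR-30a-5p and miR-148a) summed to between 292286 and 412855 TPM, and the highest of them averaged 209686 TPM. No other tissue was sequenced for comparison, so this high sum does not by itself show adipose.

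The names from miR-2284 to miR-2489 were a sparse layer of the adipose miRNA pool. Together they summed to 183.7, 81.6 and 264.2 TPM in libraries 1, 2 and 3, or 0.0177% ± 0.00915 of all TPM (SD, n = 3). The sum was lowest in library 2 and highest in library 3. After division by size factors it was 135, 136 and 218, so that libraries 1 and 2 came level and library 3 stayed highest. Single names were not level in libraries 1 and 2, with 60.9 and 36.6 for miR-2435 and 18.2 and 32.9 for miR-2478. The whole set rested on 1267, 556 and 1449 estimated reads in the 3 libraries.

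Few of these names reached a level at which counting error is small. A mean of at least 10 TPM was reached by 3 of 48, miR-2435, miR-2478 and miR-2284x, against 26.7% of all listed names. A mean of at least 1 TPM was reached by 13 of 48, against 49.5% of all listed names. At least 3 reads in every library were found for 12 of 48, against 49.5%. The median of log2(TPM + 1) over the 48 names was 0.22 ± 0.14 (SD, n = 3), against 0.91 ± 0.37 over all 622 names. The difference was -1.03, -0.35 and -0.70 in libraries 1, 2 and 3, the same sign in 3 of 3. The smallest two-sided p that exact permutation of signs allows with 3 libraries is 0.25, so this is a description. The size of this difference on the log2 scale depends on the pseudocount and on the reference (-1.90 with a pseudocount of 0.1, -0.10 with 10, and -2.68 against the other bovine names).

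**Figure D1:**
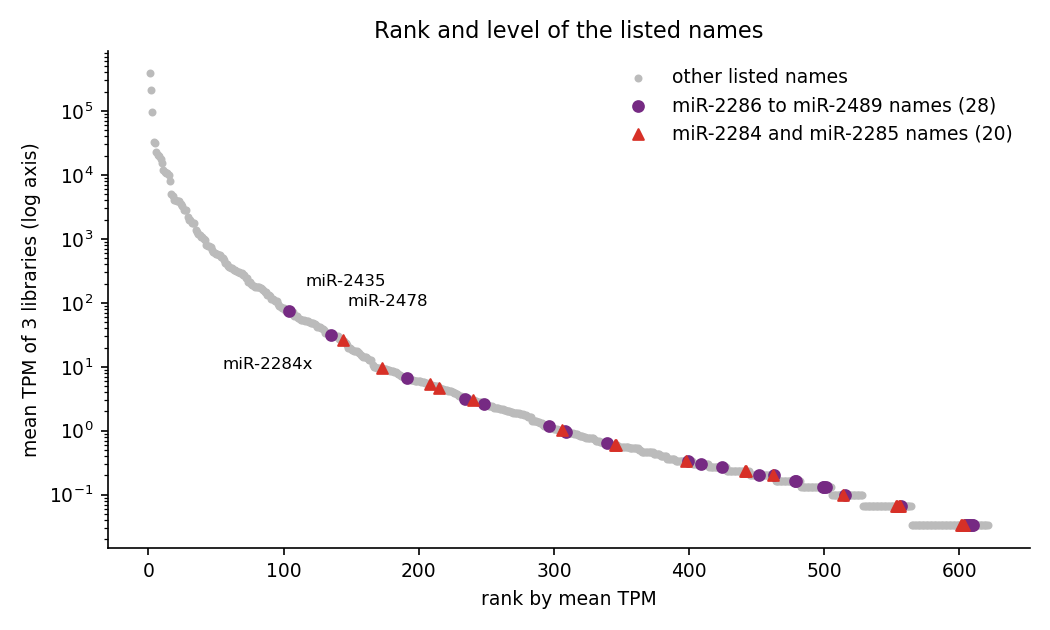
Mean TPM over the 3 libraries (log axis) of each listed name against its rank, with the names from miR-2284 to miR-2489 in colour. The 3 highest, miR-2435, miR-2478 and miR-2284x, stand at ranks 104, 135 and 144, and most of the others lie in the low tail. 1 candidate name at 0 in every library is left out.

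Set beside the other classes of names, they were nearest to the candidates in reads per name. The median name had 4 estimated reads in the 3 libraries together, as did the median of the 226 candidate names that carry no miRNA name. It was 21 reads for the 31 bovine names numbered above miR-2489 and 163 reads for the 317 numbered below miR-2284 (let-7 included). In log2(TPM + 1), the median of the 48 names minus that of the candidates was -0.12 ± 0.12 (SD, n = 3). Against the later bovine names the difference was -0.47 ± 0.28, and against the earlier ones -3.02 ± 0.62. The last 2 differences had the same sign in 3 of 3 libraries, while the first was -0.24, 0 and -0.11. At the ends of the number range the nearest listed names outside it were miR-1839, with 44.4, 19.6 and 62.9 TPM, and miR-2881, with 0.6, 1.9 and 2.6 TPM. The outermost listed names within it were those of miR-2284 and miR-2483.

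**Figure D2:**
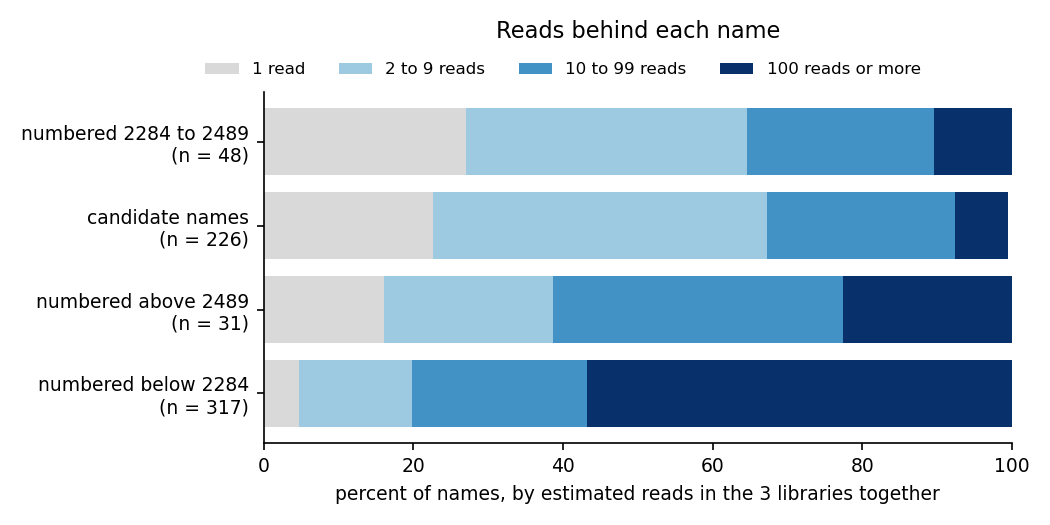
Share of names (percent) by the number of estimated reads in the 3 libraries together, for names from miR-2284 to miR-2489, candidate names, and bovine names numbered above and below that range. Of the first class 13 names had 1 read and 5 had 100 or more, whereas 180 of the 317 names numbered below the range had 100 or more.

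miR-2435 was the most abundant of the 48 names. It had 83, 22 and 118 TPM in libraries 1, 2 and 3, a mean of 74.3 ± 48.6 TPM (SD, n = 3), and stood at rank 104 of 622. Exact Poisson intervals of its reads at 95% were 76.4 to 90.1, 18.6 to 25.8 and 109 to 127 TPM, so all 3 libraries were apart by more than counting error. The highest library exceeded the lowest by 5.36-fold, and by 2.67-fold after size factors (60.9, 36.6 and 97.6). Library 2 stayed lowest for miR-2435 after size factors, which among the 13 names averaging at least 1 TPM held for miR-2435 alone, against 29.9% of all names at that level. It made up 45.2%, 27.0% and 44.7% of the TPM of the 48 names.

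miR-2478 came next with 24.8, 19.8 and 49.4 TPM (31.3 ± 15.8 TPM, SD, n = 3). Libraries 1 and 2 overlapped in their counting intervals (21.2 to 28.8 and 16.6 to 23.4 TPM), and library 3 lay above both (43.7 to 55.7 TPM). After size factors the order of the first 2 turned, with 18.2, 32.9 and 40.9. miR-2435 exceeded miR-2478 in all 3 libraries, but by 3.35-fold in library 1, 2.39-fold in library 3 and 1.11-fold in library 2. The last ratio has an exact binomial interval of 0.875 to 1.41, so that these miRNAs were not separated in library 2.

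Blood is present in adipose and its miRNAs varied between the same libraries. The 3 red blood cell miRNAs (miR-451, miR-486 and miR-144) summed to 6182, 2558 and 5046 TPM, and 5 white blood cell miRNAs to 914, 190 and 297 TPM. Both sums were lowest in library 2, as were miR-2435 and 87.3% of all names averaging at least 1 TPM. After size factors the red cell sum was 4534, 4251 and 4173 and the white cell sum 671, 316 and 245, and neither was highest in library 3, where miR-2435 was highest. The part of blood in these values was not tested. In bulk tissue a lower share of a cell type and less RNA per cell cannot be told apart.

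**Figure D3:**
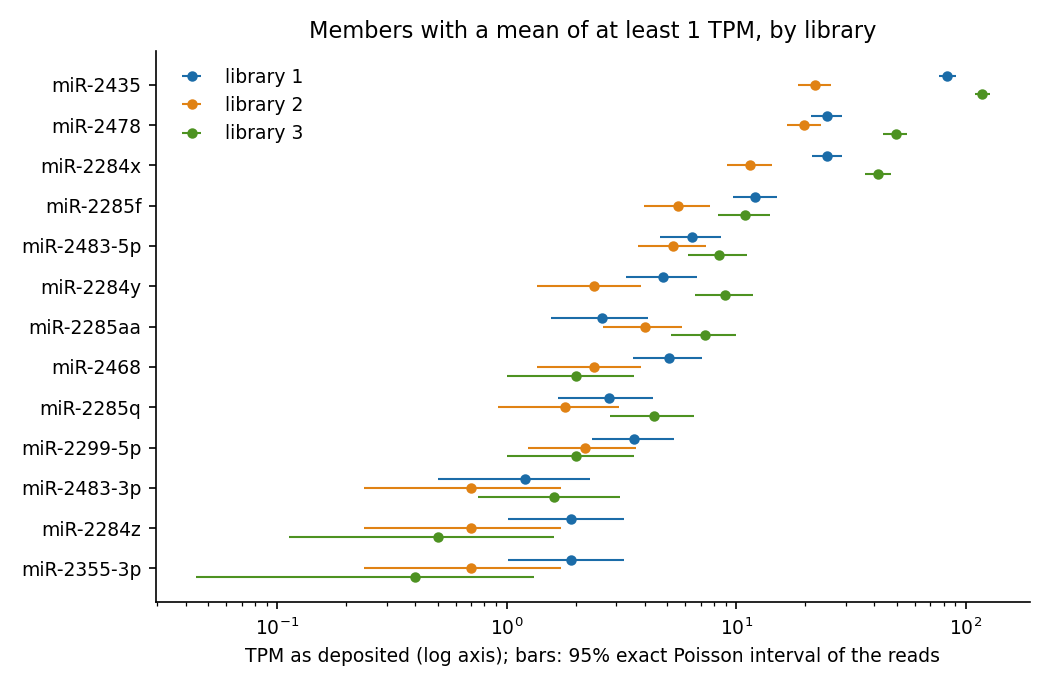
TPM as deposited (log axis) of the 13 names from miR-2284 to miR-2489 that averaged at least 1 TPM, 1 point per library, with 95% exact Poisson intervals of the estimated reads as bars. The intervals of miR-2435 are apart in all 3 libraries, whereas those of miR-2299-5p and miR-2483-3p overlap.

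The ruminant family of miR-2284 and miR-2285 held 20 of the 48 names, 9 lettered miR-2284 and 11 lettered miR-2285. Their sum was 53.4, 27.5 and 75.6 TPM (52.2 ± 24.1 TPM, SD, n = 3), or 30.5% ± 2.81 of the TPM of the 48 names. The family was uneven within itself. miR-2284x alone made up 47.7% ± 6.54 of its TPM, and 6 of 20 names had at least 3 reads in every library, against 6 of the 28 other names and 49.5% of all listed names. The median family name did not lie to 1 side of the median of the other 28. The difference in log2(TPM + 1) was 0.44, 0.12 and -0.22 in the 3 libraries, with a change of sign in library 3. The median name had 5 reads in the 3 libraries together in the family and 3.5 among the others, so these differences rest on few reads.

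miR-2284x had 24.9, 11.5 and 41.4 TPM (25.9 ± 15.0 TPM, SD, n = 3). Its counting intervals were apart in all 3 libraries, at 21.3 to 28.9, 9.11 to 14.4 and 36.2 to 47.1 TPM. After size factors libraries 1 and 2 came together at 18.3 and 19.1, and library 3 stayed above them at 34.2. miR-2284y had 4.8, 2.4 and 8.9 TPM (5.37 ± 3.29 TPM), with the same order of libraries. The ratio of miR-2284x to miR-2284y reads was 5.18, 4.88 and 4.63, and its 95% exact binomial intervals (3.55 to 7.77, 2.82 to 8.95 and 3.39 to 6.44) overlapped throughout. The ratio thus showed no difference between libraries beyond counting error, but these intervals are too wide to show that it was constant. The TPM of the 2 names changed by 3.60-fold and 3.71-fold. After size factors these changes were 1.87-fold and 2.09-fold. Library 2 was lowest in TPM for 8 of the 13 names averaging at least 1 TPM, these 2 included, against 87.3% of all names at that level. How much of the shared order came from the division of shared reads was not tested.

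The miR-2285 names did not follow 1 order of libraries. miR-2285f had 12.1, 5.6 and 10.9 TPM (9.53 ± 3.46 TPM, SD, n = 3), with library 2 below both others beyond counting error. After size factors its values were 8.87, 9.31 and 9.01, a highest-to-lowest ratio of 1.05, the smallest of the 13 names averaging at least 1 TPM. These values rest on 83, 38 and 60 reads. Their differences are smaller than counting error, so a stable level is not shown. miR-2285aa had 2.6, 4.0 and 7.3 TPM (4.63 ± 2.41 TPM). It was lowest in library 1, and after size factors its values were 1.91, 6.65 and 6.04, with libraries 2 and 3 above library 1 beyond counting error. miR-2285q had 2.8, 1.8 and 4.4 TPM (3.00 ± 1.31 TPM), from 19, 12 and 24 reads, with overlapping counting intervals in all 3 libraries.

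Of the remaining family names, miR-2284z had 1.9, 0.7 and 0.5 TPM, from 13, 5 and 3 reads, and miR-2284aa had 1.3, 0.3 and 0.2 TPM, from 9, 2 and 1 reads. Both had their highest TPM in library 1, with counting intervals that overlapped in all 3 libraries. miR-2284c had 0.6, 0.3 and 0.9 TPM. The other names of the family had fewer than 10 reads in all, and 5 of them (miR-2284ac, miR-2284f, miR-2284u, miR-2285j and miR-2285k) had 1 read.

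Outside the family, miR-2483 was the hairpin whose arms could be compared. A hairpin precursor yields a 5p and a 3p strand, of which usually 1 is retained. miR-2483-5p had 6.4, 5.3 and 8.4 TPM (6.70 ± 1.57 TPM, SD, n = 3) and miR-2483-3p had 1.2, 0.7 and 1.6 TPM (1.17 ± 0.451 TPM). The 5p arm was the more abundant in 3 of 3 libraries, with a ratio of reads of 5.50, 7.20 and 5.11. Over all libraries 126 reads of 5p stood against 22 of 3p, a ratio of 5.73 with an exact binomial interval of 3.62 to 9.46. On the log2(TPM + 1) scale the difference was 1.83 ± 0.07, and with a pseudocount of 10 it was 0.58. Its more abundant arm was below the mean of 10 TPM set for the test of arms, and at a minimum of 1 TPM limma, fitted over 27 hairpins, gave an adjusted p of 3.4e-05 (0.0076 without library 3). The standard error of 0.22 in that fit draws on the spread of all hairpins fitted, so this p does not measure the spread of miR-2483 alone. In that fit 59.3% of the hairpins passed an adjusted p of 0.05 in favour of 5p, and so did 55% of the 20 hairpins fitted at a minimum of 10 TPM, where no hairpin named here entered.

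Both arms were also listed for miR-2431 and miR-2411, at levels too low for a comparison within a library. miR-2431-3p had 0.9, 0.3 and 0.7 TPM and miR-2431-5p 0.1, 0 and 0.4 TPM. Over all libraries that is 12 reads against 3, a ratio of 4 with an exact binomial interval of 1.08 to 22.1. This pooled interval leaves out the spread between libraries. The intervals within libraries 1 and 3 (0.728 to 276 and 0.287 to 22.1) included equality, and library 2 had no 5p read. miR-2411-3p had 0.1, 0.1 and 0.7 TPM and miR-2411-5p 0.1, 0.1 and 0.2 TPM, or 6 reads against 3, whose interval of 0.427 to 12.4 includes equality. For the 7 other stems with an arm ending, 1 arm was listed.

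**Figure D4:**
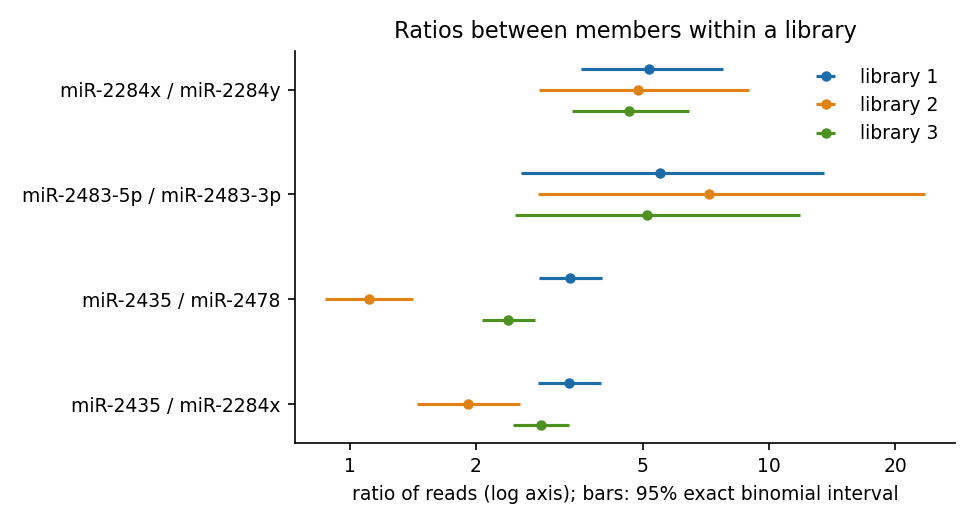
Ratio of estimated reads between 2 names within each library (log axis), 1 point per library, with 95% exact binomial intervals. The ratios of miR-2284x to miR-2284y and of miR-2483-5p to miR-2483-3p overlap between libraries, whereas miR-2435 is 3.35-fold above miR-2478 in library 1 and 1.11-fold in library 2.

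3 further names outside the family had means of at least 1 TPM and their highest TPM in library 1. miR-2468 had 5.1, 2.4 and 2.0 TPM (3.17 ± 1.69 TPM, SD, n = 3), and miR-2299-5p had 3.6, 2.2 and 2.0 TPM (2.60 ± 0.872 TPM). miR-2355-3p, whose name is also used for a human miRNA, had 1.9, 0.7 and 0.4 TPM (1.00 ± 0.794 TPM), from 13, 5 and 2 reads. Counting intervals of the libraries overlapped for all 3 names. For miR-2468 the overlap was narrow, with 3.55 to 7.09 TPM in library 1 and 1.00 to 3.59 TPM in library 3. Overlap of such intervals is not a test of a difference, so the order of libraries was not tested. After size factors miR-2468 (3.74, 3.99 and 1.65) and miR-2299-5p (2.64, 3.66 and 1.65) were highest in library 2. Without library 1 the mean of miR-2355-3p was 0.55 TPM. miR-2474 fell just short of 1 TPM with 1.0, 0.1 and 1.8 TPM, from 7, 1 and 10 reads.

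The order of libraries was compared over the 13 names averaging at least 1 TPM. Of these, 8 were highest in library 3, against 31.8% of the 308 names at that level. A further 5 were highest in library 1, against 64.3%, and 0 in library 2, against 3.9%. After size factors 6 were highest in library 3 (background 28.9%), 5 in library 2 (36.4%) and 2 in library 1 (34.7%). Library 3 lay above library 1 beyond counting error for 4 of 13 (background 13.6%), namely miR-2435, miR-2478, miR-2284x and miR-2285aa, and library 1 lay above library 3 for 0 of 13 (background 37.0%). After size factors these counts were 5 of 13, with miR-2284y added (background 21.1%), and 0 of 13 (background 29.9%). The median number of reads was 85 for the 13 and 328 for the 308, and fewer reads make wider counting intervals. Names with few reads are thus less often called apart, so counts of intervals apart are not directly comparable with their backgrounds. Library 2 lay below library 3 beyond counting error for 5 of 13 (background 60.7%) and below library 1 for 3 of 13 (background 68.5%), and above them for 0 of 13 each (backgrounds 4.22% and 2.92%). After size factors it lay below library 3 for 2 of 13 (background 13.3%) and below library 1 for 1 of 13 (19.8%). It lay above library 1 for 2 of 13, miR-2478 and miR-2285aa (24.7%), and above library 3 for 0 of 13 (24%). These counts describe 3 libraries and were not tested.

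**Figure D5:**
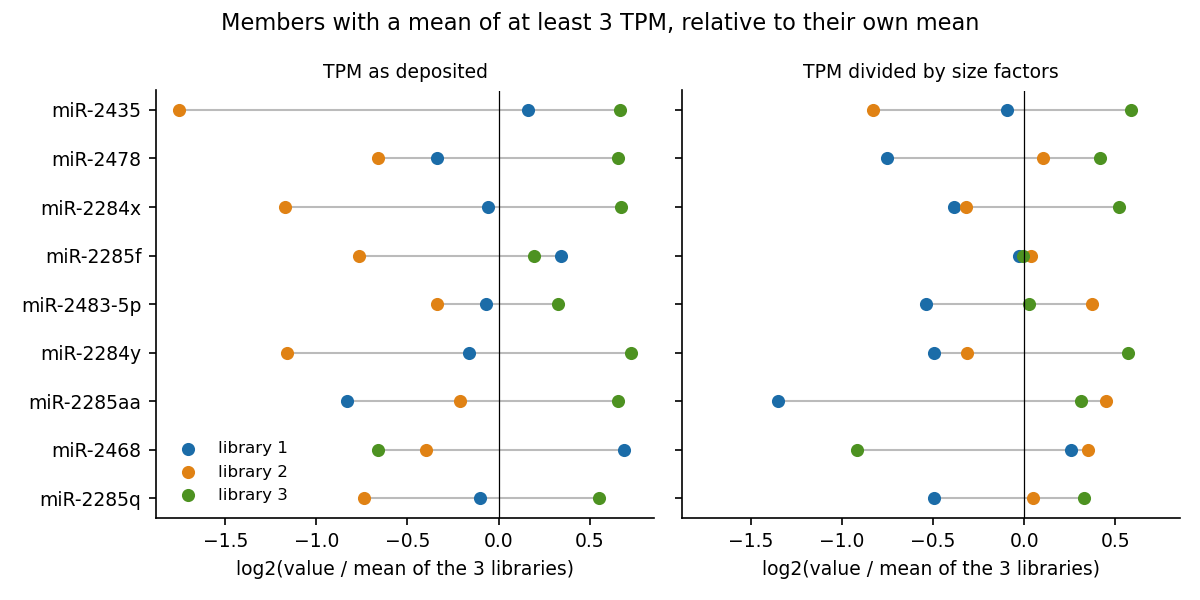
Log2 ratio of each library to the mean of the 3 libraries for the 9 names from miR-2284 to miR-2489 that averaged at least 3 TPM, from TPM as deposited and after division by size factors. miR-2435, miR-2478, miR-2284x, miR-2284y and miR-2285q are highest in library 3 in both panels, miR-2285f draws together after size factors, and miR-2468 is lowest in library 3 in both.

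The spread between libraries differed among these names. The SD of log2(TPM + 1) was 1.25 for miR-2435, 0.89 for miR-2284x and 0.77 for miR-2284y, and 0.29 for miR-2483-5p, 0.31 for miR-2483-3p and 0.33 for miR-2299-5p. Its median over the 13 names was 0.54, against 0.62 over all names averaging at least 1 TPM. The order of these medians turned after size factors (0.45 against 0.35), at a minimum mean of 10 TPM (0.89 over 3 names against 0.66) and without library 2 (0.47 against 0.32). The pseudocount damps the SD of names near 1 TPM, so that the low values of rare names are not comparable with those of abundant ones.

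The other 35 names had means below 1 TPM and together 8.6, 2.5 and 9.0 TPM in libraries 1, 2 and 3. Of these, 13 rested on 1 read in the 3 libraries together, or 27.1% of the 48 names against 13.5% of all listed names. A further 18 had 2 to 9 reads, and 4 had 10 or more (miR-2474, miR-2431-3p, miR-2284aa and miR-2284c). Among the 48 names, 20 were above 0 in all 3 libraries, 13 in 2 and 15 in 1, the last being 31.3% against 18.5% of all listed names. The candidate names were closer in both shares, with 22.6% on 1 read and 30.1% above 0 in 1 library. Of the 48 names, 9 were above 0 in library 1 alone (18.8%, against 8.84% of all listed names). Library 2 alone had 1 (2.08% against 4.02%) and library 3 alone had 5 (10.4% against 5.63%). Of all listed names, 115 were above 0 in 1 library, with 55 of them in library 1, 25 in library 2 and 35 in library 3. Library 1 also had the most of all listed names above 0, 541 against 479 and 516. Among the 48, the names in library 1 alone were miR-2284ac, miR-2284f, miR-2285k, miR-2358, miR-2367-5p, miR-2401, miR-2417, miR-2419-5p and miR-2461-3p, each at 0.1 TPM, which is 1 read. The name in library 2 was miR-2397-3p, also with 1 read. In library 3 they were miR-2284u, miR-2285j and miR-2290 with 1 read each and miR-2314 and miR-2387 with 2 reads each. For 0 reads the upper end of the 95% exact Poisson interval was 0.537, 0.545 and 0.673 TPM in libraries 1, 2 and 3, so absence from a library was not shown at this depth.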

How the data were processed

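Small RNA was sequenced from 3 adipose samples of 1 group. Per the labels' protocols, RNA was extracted with TRIzol and an Illumina TruSeq kit served for the libraries (adaptor ligation, gel selection). Bowtie and a bovine genome, UMD3.1, appear in the submitters' processing notes without version or role. The sources used here give no counting program, miRNA annotation or filter. What the authors deposited is a single table of TPM (so named in its header), 1 column for each library. All columns were mapped to samples by name (0 unmapped).

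The step worth 1 read was fitted to values up to 30 TPM. Within rounding to 0.1 TPM, 99.5%, 100% and 100% of low values lay on it, against 68.6%, 67.7% and 54.8% at random. On 30 simulated tables of 622 names the step was off by at most 0.253%. Reads are therefore estimates, and no count model was fitted. Poisson and binomial intervals are exact, at 95%, and like the floor of 3 reads cover counting error only, since PCR reads without molecular identifiers are not independent molecules. Size factors came from the 409 names above 0 in every library. Log values are log2(TPM + 1), a scale that damps the change of low names. Arms were tested with limma 3.58.1 in R 4.3.3 (Benjamini-Hochberg adjustment over all hairpins fitted). The fit was tried on simulated normal differences with a common SD, which does not cover counting error or the pseudocount. Other values were computed in Python 3.11.15 with scipy 1.17.1.

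With 1 group there was no contrast between conditions. Names averaging at least 3 TPM, those with both arms listed, those whose name is also used in human, and the nearest names outside the range were named by rule. miR-2299-5p, miR-2284z, miR-2284aa, miR-2284c, miR-2474 and the names above 0 in 1 library were added after their values were seen. The set and the tests were chosen with earlier results of these data known. Alternatives were other pseudocounts, minimums, floors, references, size factors and leaving out each library.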

Additional observations from a re-analysis of the deposited data

How the results depend on the processing

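The number of names with enough reads in every library was 20 at a floor of 1 read in place of 12 at 3 reads (409 and 308 of all 622 names), and 12 to 16 with 1 library left out (313 to 353). Names at a mean of at least 10 TPM numbered 3 of 166 names at that level (3 to 4 of 162 to 180 with a library left out), and 13 of 308, 6 of 214 and 0 of 95 at minimums of 1, 5 and 100 TPM. The share of TPM was 0.0284% once miR-10b was taken out of the total, and 0.0133% to 0.0224% with a library left out. The median level against all names was -1.90 and -0.10 with pseudocounts of 0.1 and 10, -1.64 at a minimum mean of 1 TPM and -2.68 against the other bovine names, and -0.86 to -0.52 with a library left out. The median of the miR-2284 and miR-2285 names lay 0.11 above that of the other 28, 0.50 at a minimum mean of 1 TPM, and -0.051 without library 1 (-0.051 to 0.28 over the libraries left out). The median SD was 0.18 with a pseudocount of 10 (0.38 over all names), 0.89 at a minimum mean of 10 TPM (0.66), 0.28 with no minimum (0.37), and 0.47 to 0.60 with a library left out (0.32 to 0.74). The arm difference of miR-2483 was 2.47 and 0.58 with pseudocounts of 0.1 and 10 and 1.80 to 1.87 with a library left out, and limma's adjusted p at a minimum of 1 TPM ranged from 1.5e-05 to 0.0076 with a library left out, an alternative chosen after seeing the data. For the 15 names followed singly, 3 of 60 alternative means moved by over 1.5-fold, that of miR-2355-3p to 0.55 TPM without library 1, and those of miR-2411-3p to 0.1 TPM and miR-2431-5p to 0.05 TPM without library 3. In names below 1 TPM depth limits every statement. The cause of these changes was not tested. No paired analysis was possible because there is 1 group, apart from the difference of the arms within a library.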
